A study of Homo sapiens with 15 samples.

Results

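The long and short arms of human chromosome 17 were followed in Pt-exo-seq libraries of the ovarian cancer lines PEO1 and PEO4. All 90217 windows of 1 kb on chromosome 17 were taken, out of 3439652 windows in the table, with 26667 windows on the short arm (17p, window midpoint under 24 Mb on hg19) and 63550 on the long arm (17q). The chromosome was chosen by its share of all read counts, which in earlier results of these data was higher in PEO4 than in PEO1 both without and with cisplatin, so that difference is described here without a test. Averaged over the 15 libraries, a count of 5 or more was reached by 16552 windows of 17p (62.1%) and 57213 windows of 17q (90.0%), and 5095 windows of the chromosome had no read in any library. Counts were summed into 812 bins of 100 kb, of which 779 averaged 50 counts or more, had a GC content and were tested, 221 of 240 on 17p and 558 of 572 on 17q.

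Both lines were established from the same patient with high-grade serous ovarian cancer, PEO1 while the tumour was sensitive to platinum and PEO4 after clinical resistance had developed. The 5 groups of 3 libraries each were untreated PEO1, PEO1 given 16 µM cisplatin, untreated PEO4, and PEO4 given 16 µM or 32 µM cisplatin, with drug exposure for a few hours before DNA was taken. The doses of 16 µM in PEO1 and 32 µM in PEO4 were the pair that the study used to bring the amount of platinum on DNA closer together. The labels do not say that the 3 libraries of a group came from separate cultures, so p-values measure the spread between these libraries, which may be technical.

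Cisplatin binds mainly to neighbouring guanines and cross-links them within a strand. In Pt-exo-seq an exonuclease digests each fragment until it meets such an adduct, and the reads start at the stop. Cancer genomes of the serous ovarian type carry many gains and losses of chromosome arms and of smaller segments, and chromosome 17 holds several well known tumour suppressor and repair genes, among them MAP2K4 on 17p and BRCA1 on 17q. Untreated libraries carry no platinum from the experiment and give the background of the assay. No library made without the exonuclease step was analysed here, so the number of copies of a region and the recovery of its fragments cannot be told apart.

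The libraries differed in how their counts followed base composition, and windows of very different composition lie on both arms. Among windows with 5 or more counts on average, a GC-rich one on each arm and the one of lowest GC content on 17p are shown by the 150 bases at their centre, to give the range of sequence over which reads were counted. The sequences are the plus strand of the GRCh37 (hg19) reference, with every GG and CC, the main target of cisplatin on either strand, in capitals.
17p window with the second highest GC content, chr17:2296326-2296475: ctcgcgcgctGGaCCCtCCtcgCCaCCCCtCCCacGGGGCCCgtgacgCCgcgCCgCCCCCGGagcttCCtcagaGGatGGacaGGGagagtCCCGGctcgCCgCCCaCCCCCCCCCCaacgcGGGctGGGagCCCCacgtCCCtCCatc
17p window with the lowest GC content, chr17:10685226-10685375: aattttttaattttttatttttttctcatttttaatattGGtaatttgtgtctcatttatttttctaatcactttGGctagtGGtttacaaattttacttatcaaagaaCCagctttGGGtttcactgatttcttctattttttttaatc
17q window with the highest GC content, chr17:78234726-78234875: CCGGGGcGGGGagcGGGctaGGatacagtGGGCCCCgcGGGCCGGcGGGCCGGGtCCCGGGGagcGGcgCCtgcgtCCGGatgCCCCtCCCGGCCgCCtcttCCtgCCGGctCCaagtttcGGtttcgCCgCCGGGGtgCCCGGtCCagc
The GC-rich window of 17p, with 74.9% GC, lay in an intron of MNT, a repressor of the MYC network, and the GC-rich window of 17q, with 82.0% GC, in an intron of RNF213, a large ubiquitin ligase. The window of highest GC content on 17p was passed over because its centre overlapped an untranslated region. The AT-rich window of 17p, with 24.7% GC, lay within TMEM220-AS1 and outside its exons. Of the 150 bases shown, 78 and 90 stood in GG or CC runs in the GC-rich windows of 17p and 17q, against 11 in the AT-rich window of 17p. The mean count per library was 5 and 10.5 in the GC-rich windows and 6.4 in the AT-rich one, too few reads to compare groups at single windows.

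The total count per library was 27.7 to 56.6 M, of which 0.799 to 2.01 M fell on chromosome 17. In each treated group, replicate 1 stood apart from the other libraries of its group in the slope of its counts against GC content, taken over bins outside chromosome 17. On the log2 scale per 10 percentage points of GC, relative to the mean of the line, treated PEO1 had a slope of 0.343 in replicate 1 against -0.098 and -0.096 in replicates 2 and 3. Treated PEO4 had -0.321 against 0.153 and 0.087 with 16 µM, and 0.168 against -0.3 and -0.201 with 32 µM. Chromosome 17 was richer in GC than the genome, with a median of 45.1% over its tested bins against 39.8% over all tested bins, so values are given both as counts scaled to the library total and as a GC-adjusted level. The GC-adjusted level of a bin is its log2 count minus the cubic GC trend of the same library over the other autosomes, so that 0 is the level of an average bin of the same GC content.

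The share of the counts on 17q was higher in PEO4 than in PEO1, while that on 17p was similar. On 17q the untreated PEO1 libraries had shares of 1.92%, 2.15% and 2.11%, and the untreated PEO4 libraries 3.16%, 3.0% and 3.24%. The means were 2.06% ± 0.12 (SD, n = 3) and 3.13% ± 0.12 (SD, n = 3), a ratio of 1.52. No PEO1 library reached the lowest PEO4 library.
On 17p the untreated PEO1 libraries had shares of 0.389%, 0.441% and 0.426% and the PEO4 libraries 0.453%, 0.433% and 0.457%, so the groups overlapped. Their means were 0.419% ± 0.027 (SD, n = 3) and 0.448% ± 0.012 (SD, n = 3), 0.10 higher in PEO4 on the log2 scale with an SE of 0.059. By contrast, the GC-adjusted level of 17p was lower in PEO4 by 0.04 (SE 0.011), and on that scale the groups did not overlap. The 95% Wilson interval of a share was at most ± 0.00639 percentage points and covers counting error only.

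**Figure D1:**
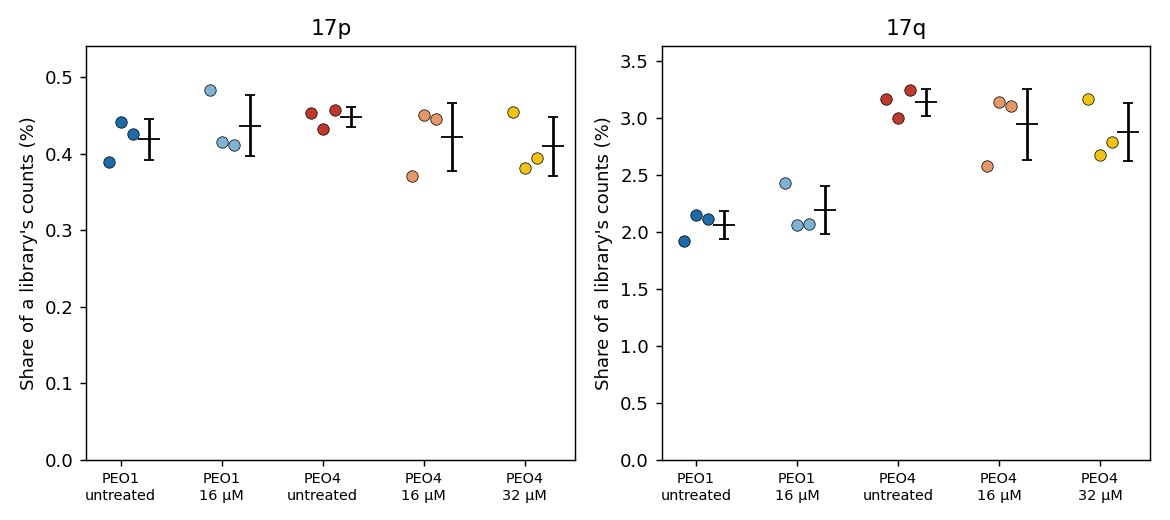
Share of each library's counts (%, y axis from 0) on 17p (left) and 17q (right) in the 5 groups; points are libraries and the bars beside them the mean ± SD of 3. The 17q shares of untreated PEO1 (1.92% to 2.15%) lie below those of untreated PEO4 (3.0% to 3.24%), whereas the 17p shares overlap.

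After GC adjustment the spread between libraries became small. The GC-adjusted level of 17q was 0.04 ± 0.01 (SD, n = 3) in untreated PEO1 and 0.43 ± 0.014 (SD, n = 3) in untreated PEO4. With 16 µM cisplatin it was 0.07 ± 0.005 in PEO1 and 0.43 ± 0.018 in PEO4, and with 32 µM it was 0.43 ± 0.01 in PEO4 (SD, n = 3 each). The level of 17p was far below the genome trend in all 5 groups, from -0.92 to -0.86. Over the whole chromosome the difference between the lines, PEO4 minus PEO1, was 0.53 on the log2 share and 0.26 on the GC-adjusted level in untreated cells. For PEO4 with 32 µM against PEO1 with 16 µM it was 0.32 on the log2 share and 0.24 on the GC-adjusted level.
The other small or GC-rich chromosomes moved between the scales too. The untreated difference was 0.10 on the share and -0.01 on the adjusted level for chromosome 16, 0.33 and 0.10 for chromosome 19, and -0.28 and -0.39 for chromosome 22. For chromosome 20 it was 0 on the share and -0.26 on the adjusted level.

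The balance of the arms within a library, in which a change common to both arms cancels, separated the lines. Most counts of the chromosome fell on 17q, and the chromosome was chosen by its share. The balance is thus a description of that difference and not separate evidence for it. The ratio of the 17q share to the 17p share was 4.93, 4.87 and 4.95 in the untreated PEO1 libraries and 5.04, 4.97 and 5.03 at 16 µM. The PEO4 libraries had 6.98, 6.92 and 7.08 untreated, 6.96, 6.95 and 6.96 at 16 µM, and 6.95, 6.99 and 7.08 at 32 µM. Every PEO4 library lay above every PEO1 library. On the log2 scale the treated libraries had 2.326 ± 0.01 (SD, n = 3) in PEO1 and 2.804 ± 0.01 (SD, n = 6) in PEO4, a difference of 0.478 with an SE of 0.007.
The balance of treated and untreated libraries of a line differed far less. Treated minus untreated, the log2 ratio differed by 0.028 (SE 0.009) in PEO1, and by -0.008 (SE 0.01) with 16 µM and 0.003 (SE 0.013) with 32 µM in PEO4, with exact permutation p-values of 0.1, 0.7 and 0.8 and adjusted p-values of 0.3, 0.8 and 0.8. The smallest p that 3 against 3 libraries can give is 0.1, so none of these 3 could pass 0.05, although all 3 treated PEO1 libraries (2.314 to 2.332) lay above the untreated ones (2.284 to 2.307). On the GC-adjusted level the changes were 0.014, 0.003 and -0.003, opposite in sign to the unadjusted ones for both PEO4 doses.

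Along the chromosome the level changed in blocks, and each line was first described alone. From the 17p end to 35.3 Mb, well into 17q, 319 of 320 bins lay below the genome trend in both lines, the exception being chr17:21200001-21300000 with a level of 0.20 in untreated PEO1 and 0.07 in untreated PEO4. In untreated PEO1 the stretch from 25.5 to 35.3 Mb had a median level of -0.73 ± 0.023 (SD, n = 3), or 0.6 of the trend, and in untreated PEO4 -0.74 ± 0.04 (SD, n = 3). NF1, which encodes a GTPase activating protein that restrains RAS, and SUZ12, a subunit of the Polycomb complex that methylates histones, lie there. At 35.3 Mb both lines stepped up to a level of 0.34, 1.26 times the trend, which PEO1 held up to 44.3 Mb and PEO4 up to 42.9 Mb. ERBB2, a receptor tyrosine kinase, and BRCA1, which acts in homologous recombination, lie on this shared plateau. The arm border at 24 Mb showed no change of that size, so the division into arms did not follow the levels. Single bins were very low in both lines, the lowest at -4.06 in PEO1 (chr17:21600001-21700000) and -4.27 in PEO4 (chr17:34700001-34800000), and between 18.3 and 19.4 Mb 10 bins together had a median of -1.56 in PEO1, with -1.57 in PEO4 between 18.2 and 19.3 Mb.

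**Figure D2:**
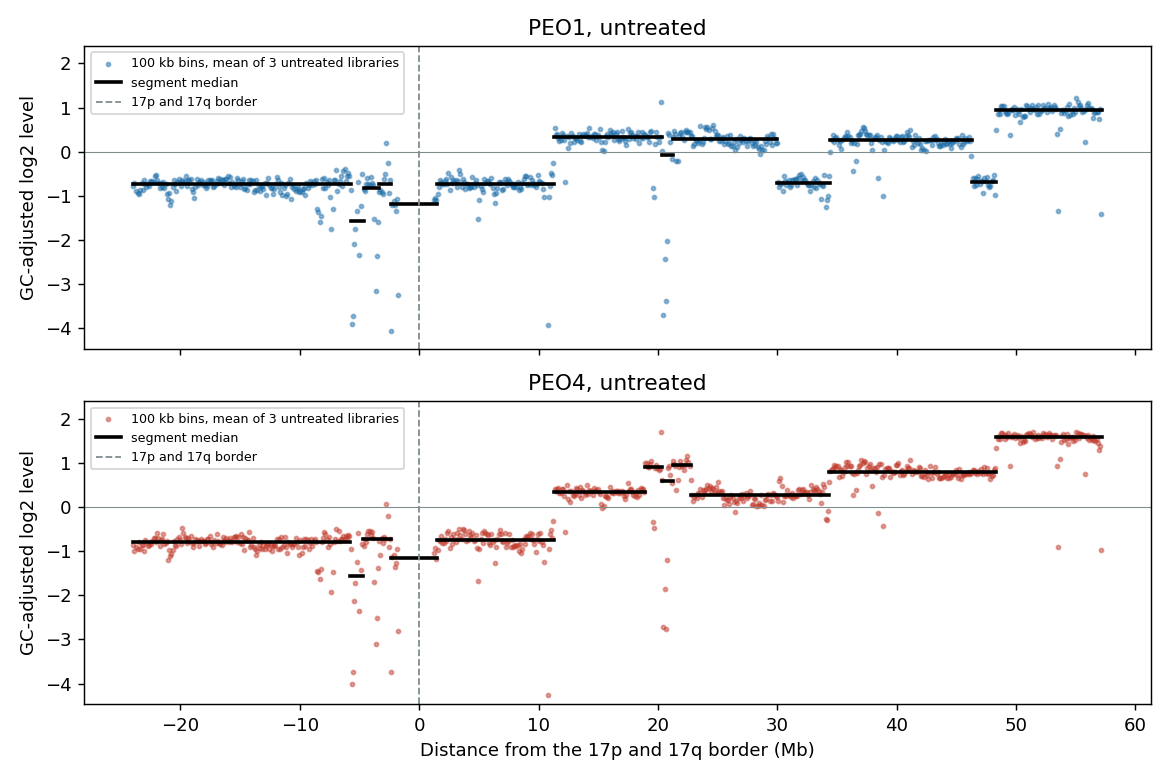
GC-adjusted log2 level of the tested 100 kb bins of chromosome 17 (y axis) against distance from the 17p and 17q border in Mb (x axis), for untreated PEO1 (top) and untreated PEO4 (bottom); points are means of 3 libraries and black lines the medians of segments found in each line alone. Both lines rise from about -0.73 to 0.34 at the same place on 17q, and the last segment reaches 0.94 in PEO1 and 1.58 in PEO4.

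Beyond that plateau the lines parted. PEO1 dropped to -0.71 ± 0.041 (SD, n = 3) between 54.0 and 58.4 Mb, returned to 0.27 ± 0.019, and dropped again to -0.68 ± 0.016 between 70.3 and 72.3 Mb. PEO4 stayed at 0.27 ± 0.025 from 46.8 to 58.3 Mb and rose to 0.80 ± 0.006 from 58.3 to 72.3 Mb, across the second PEO1 drop. From 72.3 Mb to the end of the chromosome both lines had their highest level, 0.94 ± 0.009 in PEO1 and 1.58 ± 0.006 in PEO4, or 1.91 and 2.99 times the trend. With cisplatin the last segment had a level of 0.97 ± 0.01 (SD, n = 3) in PEO1 and 1.58 ± 0.02 (SD, n = 6) in PEO4. PEO4 alone had a raised block from 42.9 to 46.8 Mb, with a level of 0.91 and 0.94 on its outer parts. Between them, from 44.3 to 45.3 Mb, both lines had a lower stretch of 10 bins. Its untreated level was 0.58 ± 0.053 in PEO4 and -0.07 ± 0.133 in PEO1 (SD, n = 3 each). PEO1 then had 0.28 up to 54.0 Mb.

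The difference between the untreated lines was then divided into segments by least squares over the 779 bins, which gave 7 segments with all 6 steps on 17q. The borders lay at 42.9, 46.7, 54.0, 58.5, 70.3 and 72.3 Mb. Segment 1 held the whole of 17p and the start of 17q, and its PEO4 minus PEO1 difference was -0.03 on the GC-adjusted log2 scale. The difference was 0.60 in segment 2, -0.02 in segment 3, 1.02 in segment 4, 0.55 in segment 5, 1.48 in segment 6 and 0.63 in segment 7. Segments 4 and 6, where PEO1 dropped, thus had 2.03 and 2.80 times the level in PEO4, and segments 2, 5 and 7 had 1.51, 1.46 and 1.55 times. The spread over bins within a segment was 0.08 to 0.15 (SD).
The same rule gave 1 to 9 segments on the other chromosomes. The 0.899 segments per 100 tested bins of chromosome 17 compared with 0.0768 on chromosome 11 and 0.691 on chromosome 10.

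The borders came from untreated libraries alone, and the steps at them were then measured in the treated libraries, which had taken no part in placing them. Each step is the mean level of the whole segment on the right minus that of the whole segment on the left. It is thus not a local change at the border. At 42.9 Mb the step was 0.55 to 0.60 in the 3 treated PEO1 libraries and 1.09 to 1.19 in the 6 treated PEO4 libraries. In both lines segment 1 holds the shared rise at 35.3 Mb, so this step includes that rise. In untreated PEO1 alone, 1 segment ran from 35.3 to 44.3 Mb, with no border at 42.9 Mb. At 46.7 Mb the step was 0.29 to 0.33 in PEO1 and -0.32 to -0.18 in PEO4. These differences of means had opposite signs in the 2 lines, but the segment medians fell in both. At 16 µM the median went from 0.39 in segment 2 to 0.28 in segment 3 in PEO1, and from 0.89 to 0.23 in PEO4. At 32 µM it went from 0.86 to 0.26 in PEO4. At 54.0 Mb the step was -0.99 to -0.96 in PEO1 and 0.02 to 0.09 in PEO4. At 58.5 Mb it was 0.93 to 0.98 in PEO1 and 0.44 to 0.51 in PEO4. At 70.3 Mb the step was -0.99 to -0.94 in PEO1 and -0.03 to 0.02 in PEO4, so the PEO1 step was about as large as at 54.0 Mb while the PEO4 libraries lay around 0. At 72.3 Mb the level rose by 1.54 to 1.62 in PEO1 and by 0.69 to 0.75 in PEO4.
The PEO1 and PEO4 libraries did not overlap at any of the 6 steps, each in the direction seen without drug. Without GC adjustment the same rule gave 7 steps, of which 6 did not overlap. Over all chromosomes 79 of 79 steps found in this way (100%) did not overlap, so the share on chromosome 17 was that of the genome. Chromosome 17 was chosen on a difference between the same lines, so no p is given for the steps. The treated difference between the lines ranged from -0.86 (SE 0.026) at 72.3 Mb to 1.03 (SE 0.016) at 54.0 Mb, next to -0.85 and 1.04 in untreated cells. The 16 µM and the 32 µM libraries of PEO4 gave step differences at most 0.05 apart.

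**Figure D3:**
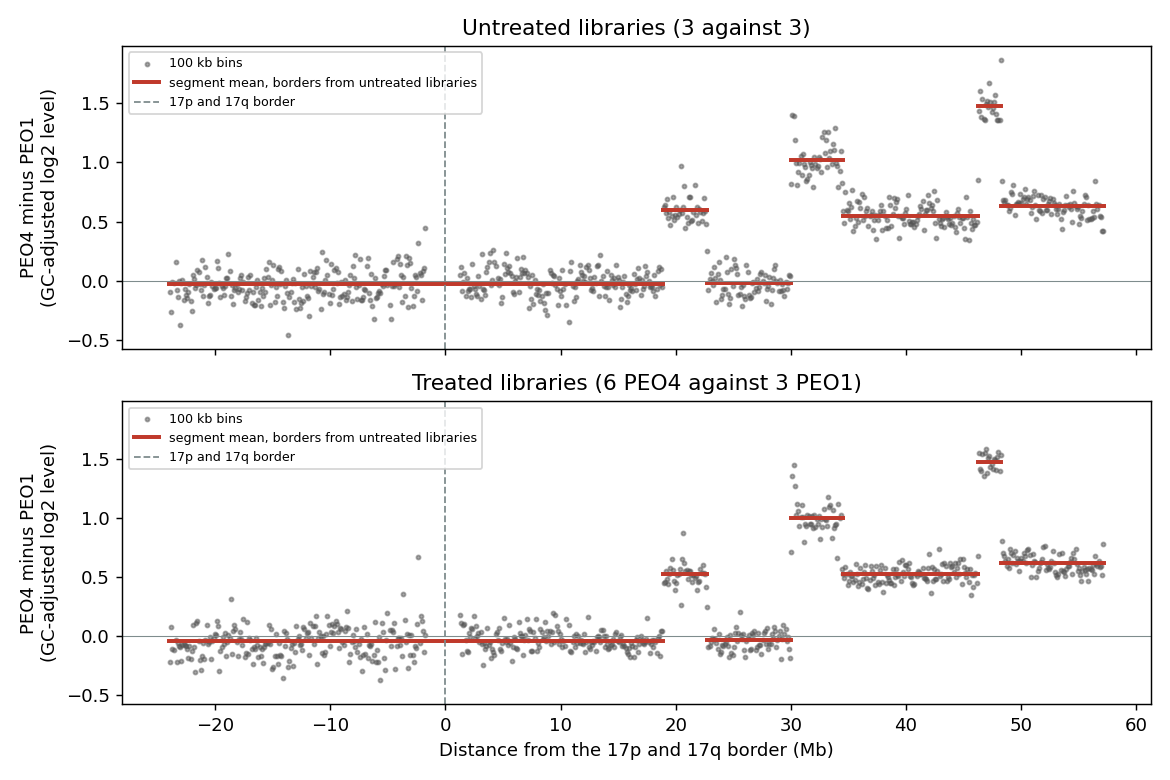
PEO4 minus PEO1 difference of the GC-adjusted log2 level per 100 kb bin (y axis) against distance from the 17p and 17q border in Mb (x axis), in untreated (top) and treated (bottom) libraries; red lines are segment means with borders from the untreated libraries. Both panels show a difference near 0 on 17p and raised segments on 17q, the highest at 1.48 in untreated cells.

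**Figure D4:**
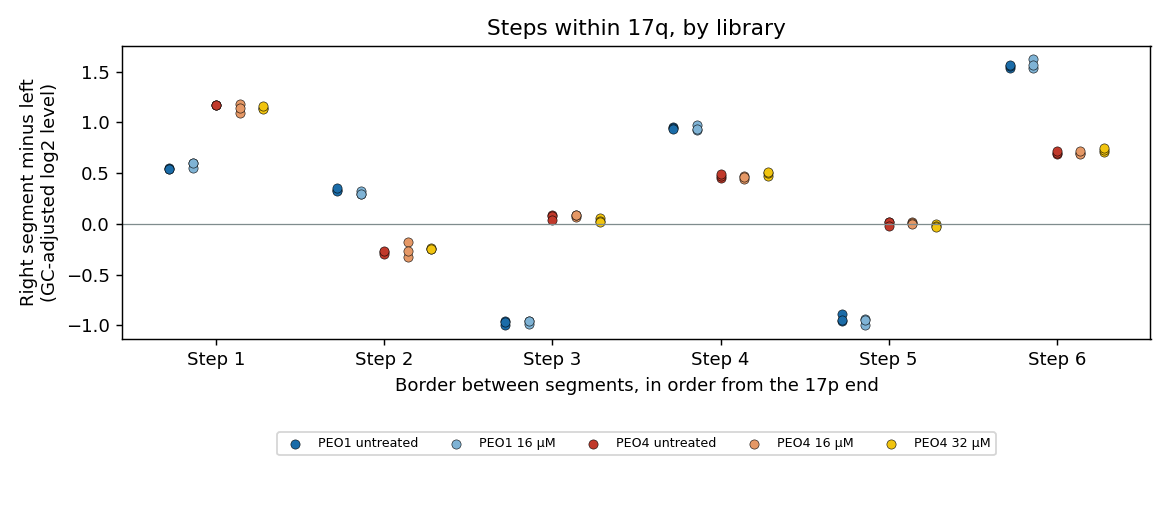
Size of each of the 6 steps (right segment minus left, GC-adjusted log2 level, y axis) in every library, by border in order from the 17p end (x axis) and coloured by group. At step 3, the border at 54.0 Mb, treated PEO1 libraries lie at -0.99 to -0.96 and treated PEO4 libraries at 0.02 to 0.09.

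Over the 779 bins the treated and the untreated line difference had a Pearson r of 0.943, which describes bins that share a genome and a base composition and come from different libraries.

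Single bins were tested on the same untreated contrast that chose the chromosome and placed the segment borders, so the counts are given as a description. In untreated cells 317 of the 779 bins of chromosome 17 differed between the lines at an adjusted p under 0.05 with edgeR (40.7%), against 25.1% of 28190 bins over the genome. Of these, 315 were higher in PEO4, where the genome had 14.4% of bins higher, and 2 were lower, where the genome had 10.7% lower. With a GC offset per library 314 were higher and 15 lower. On 17p 4 of 221 bins were called (1.81%) and on 17q 313 of 558 (56.1%). The counts by segment follow from borders placed on the same libraries, so they are no separate evidence for the segments. In segments 2, 4, 5, 6 and 7, 37 of 38, 45 of 45, 116 of 118, 20 of 20 and 89 of 89 bins were called, all higher in PEO4. In segments 1 and 3 the counts were 8 of 396 and 2 of 73. The genes whose midpoint lay in a segment and which code for protein numbered 721, 65, 66, 52, 82, 11 and 192, of 1189 on the chromosome.

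Listed genes followed the segment in which they lay. Of 15 genes of DNA damage and repair, the bins of 5 were called higher in PEO4 and none lower, and of 12 genes of tumour growth and suppression likewise 5 and none. These 10 of 27 genes (37.0%) compare with 40.7% of all bins of the chromosome, and the 10 of 21 on 17q (47.6%) with 56.1% of 17q bins. All 6 listed genes of 17p and the 10 listed genes of 17q up to 42.9 Mb were not called. The median log2 difference over the listed genes was 0.23 on 17p and 0.37 on 17q, beside 0.12 and 0.48 over all tested bins of these arms. After GC adjustment the medians over the listed genes were -0.08 on 17p and 0.20 on 17q.
On 17p, the bin of MAP2K4, a kinase upstream of JNK, had 650, 707 and 644 counts in untreated PEO1, scaled to the median library total of 33.1 M, and 597, 560 and 559 in untreated PEO4, a log2 difference of -0.18. The bins of RPA1, TOP3A, AURKB and FLCN, also on 17p, had log2 differences of 0.08 to 0.38. After GC adjustment these were -0.02, -0.10, -0.13 and 0.13.
In the first part of 17q, the bin of NF1 had 710, 567 and 735 scaled counts in untreated PEO1 and 625, 653 and 741 in PEO4, and the groups overlapped. The bin of ERBB2 had 1040, 1347 and 1429 against 1695, 1455 and 1634, with a log2 difference of 0.37 that was -0.13 after GC adjustment. The bin of BRCA1 had 1294, 1370 and 1375 against 1369, 1309 and 1338, again with overlap. The bin of NF1 thus had lower counts than those of BRCA1 and ERBB2 in both lines, on either side of the shared step at 35.3 Mb.

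The bin of RAD51C, which acts in homologous recombination, lay in segment 4 and had 535, 772 and 565 scaled counts in untreated PEO1 and 1525, 1399 and 1619 in untreated PEO4. The log2 difference was 1.32, the largest of the listed genes, and 1.22 after GC adjustment. With 16 µM cisplatin PEO1 had 765, 700 and 694 and PEO4 1154, 1417 and 1536, and with 32 µM PEO4 had 1571, 1187 and 1242, so the lines did not overlap. RNF43, a ubiquitin ligase that removes WNT receptors and lies in the same segment, had a log2 difference of 1.20.
The bin of BRIP1, a helicase of cross-link repair, lay in segment 5 and had 1512, 1349 and 1432 scaled counts in untreated PEO1 against 1768, 1972 and 1862 in PEO4, a log2 difference of 0.43. The bin of SOX9, a developmental transcription factor, lay near the end of the same segment and had 1306, 1437 and 1302 against 2096, 1968 and 2043, a log2 difference of 0.64. Both genes had GC-adjusted differences near the segment mean, 0.49 for BRIP1 and 0.50 for SOX9. In the same segment, PPM1D, a phosphatase that dampens the DNA damage response, had a GC-adjusted difference of 0.75, AXIN2, a scaffold that limits WNT signalling, 0.55, PRKCA, a protein kinase C, 0.50 and POLG2, a subunit of the mitochondrial DNA polymerase, 0.45.
In the last segment, FAAP100, a part of the Fanconi anaemia core complex, had a GC-adjusted difference of 0.73 and BIRC5, which encodes survivin, 0.60. EME1, a subunit of a structure-specific nuclease, lay in segment 3 and had 0.07.

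The bins with the largest differences were picked on these values and carry no test. On 17q, chr17:72200001-72300000, which overlaps DNAI2, RPL38 and TTYH2, had 415, 594 and 544 scaled counts in untreated PEO1 and 2475, 2239 and 2615 in PEO4, and chr17:71200001-71300000, which overlaps CDC42EP4 and COG1, had 542, 609 and 599 against 2168, 2018 and 2195. Both lie in segment 6, and their GC-adjusted differences of 1.87 and 1.67 were 1.53 and 1.52 in treated cells. The largest negative values of 17q, -0.35 at chr17:34700001-34800000 over the TBC1D3 gene family, whose near-identical copies make counts uncertain, and -0.29 at chr17:32800001-32900000 near TMEM132E, were 0.09 and 0.04 in treated cells.
On 17p the positive extremes were smaller. They were 0.44 at chr17:22200001-22300000, where only 63% of bases are known in the reference, and 0.24 at chr17:13200001-13300000 near HS3ST3A1. The negative ones were -0.46 at chr17:10300001-10400000, over the myosin genes MYH1, MYH4 and MYH8, and -0.37 at chr17:900001-1000000, over ABR and TIMM22. In treated cells these were 0.01, -0.14, -0.26 and -0.10, so the myosin bin kept the largest difference of the 4. Its scaled counts were 711, 683 and 732 in untreated PEO1 and 519, 456 and 462 in untreated PEO4, and 612, 723 and 779 in PEO1 at 16 µM against 508, 707 and 583 in PEO4 at 32 µM, where the groups overlapped.

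No bin of chromosome 17 changed with cisplatin at an adjusted p under 0.05 in any of the 6 treatment comparisons with edgeR, as none of the 28190 bins of the genome did (0%). DESeq2 called none either. At an unadjusted p under 0.05 edgeR had 35 of 779 bins for treated PEO1, and 11 and 66 for PEO4 with 16 and 32 µM, and DESeq2 had 39, 13 and 77. The edgeR shares were 4.49%, 1.41% and 8.47%, against 3.06%, 2.16% and 9.32% of bins outside chromosome 17, so that they were above the rest of the genome in PEO1 alone. For the difference of the responses, PEO4 less PEO1, the unadjusted numbers were 105 at 32 µM against 16 µM (13.5%, 97 of them lower in PEO4) and 69 at 16 µM in both lines (8.86%, 65 lower), and 117 and 73 with DESeq2. Outside chromosome 17 these shares were 7.56% and 4.12%. The numbers moved with single libraries. The 105 became 28 without replicate 1 of treated PEO1, 33 and 57 without replicate 1 of untreated PEO1 and of untreated PEO4, 43 without replicate 3 of untreated PEO4, and 35 and 36 without replicates 2 and 3 of the 32 µM libraries. It rose to 283 without replicate 1 of the 32 µM libraries, 179 without replicate 1 of PEO4 with 16 µM and 167 without replicate 2 of treated PEO1. The 66 of PEO4 with 32 µM ran from 19 to 269 (without its treated replicates 2 and 1), the 35 of PEO1 from 9 (without untreated replicate 1) to 58 (without treated replicate 3), and the 11 of PEO4 with 16 µM from 6 to 35 (without its treated replicates 1 and 2). The 69 ran from 16 (without replicate 1 of untreated PEO1) to 111 (without replicate 2 of PEO4 with 16 µM). For 32 µM against 16 µM in PEO4 there were 14 bins with edgeR (1.8%, against 2.97% outside the chromosome) and 17 with DESeq2, and 7 to 62 with edgeR when a library was left out, the highest without replicate 1 of the 16 µM libraries. The moderated test of limma on ratios to untreated cells, run for the 32 µM against 16 µM response, also called none and had 283 bins at an unadjusted p under 0.05. It does not count the error of the untreated means.
With a GC offset per library the edgeR numbers moved in both directions. For the 32 µM against 16 µM response the number was 54 instead of 105, and at 16 µM in both lines 62 instead of 69. PEO4 with 32 µM had 42 instead of 66. The number rose from 35 to 77 for treated PEO1 and from 11 to 22 for PEO4 with 16 µM. For 32 µM against 16 µM in PEO4 it rose from 14 to 36. The bin with the smallest p in this comparison among those lower in PEO4 was chr17:17200001-17300000 on 17p over NT5M, a mitochondrial nucleotidase, with a response difference of -0.70. Among the 8 bins higher in PEO4 at an unadjusted p under 0.05 it was chr17:54500001-54600000 on 17q within ANKFN1, with 0.33. Their unadjusted edgeR p-values were 0.00433 and 0.0157 and both adjusted p-values 0.602. The NT5M bin had 568, 639 and 747 scaled counts in untreated PEO1 and 879, 899 and 819 at 16 µM, without overlap, against 954, 837 and 912 in untreated PEO4 and 906, 743 and 599 at 32 µM, with overlap.

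In group means the treatment changes of chromosome 17 bins went with GC content, upward in PEO1 and downward in PEO4, and in PEO1 and in PEO4 with 16 µM this rested on 1 library. In PEO1 the median log2 change was 0.01 in the tercile of bins with the lowest GC content (up to 42.9%) and 0.19 in that with the highest (over 48.1%). The PEO4 medians went from 0.03 to -0.19 with 16 µM and from 0.02 to -0.23 with 32 µM. Over the 779 bins the Pearson r of the change with GC content was 0.59, -0.71 and -0.73, on bins that share their libraries. The arms did not part in this, with 0.53, -0.58 and -0.58 on 17p and 0.62, -0.76 and -0.77 on 17q. GG and CC dinucleotides gave nearly the same values, 0.60, -0.70 and -0.71. With differences of mean log2 counts in place of edgeR's estimates r was 0.59, -0.73 and -0.74. Without replicate 1 of treated PEO1 it was -0.02, with a median change of 0.01 in the highest tercile, and without replicate 1 of untreated PEO1 it was 0.25. In PEO4 it was -0.17 without replicate 1 of the 16 µM libraries, with a median of -0.02 in the highest tercile, and with 32 µM it ran from -0.82 to -0.54 with each library left out. After GC adjustment by the trend of the other chromosomes the r values were 0.02, 0.02 and -0.03, and the median change in the highest tercile was 0.02, 0 and -0.01.

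The share of chromosome 17 in a library went with the GC slope that the library had on all other chromosomes. A chromosome richer in GC than the genome takes more of the total where the slope is higher, and the share chose the chromosome, so the values are a description without a test. Over the 6 PEO1 libraries the log2 share had a Pearson r of 0.99 and a Spearman rho of 1 with the slope, and over the 9 PEO4 libraries r was 0.994 and rho 1. For 17p and 17q r was 0.995 and 0.987 in PEO1 and 0.995 and 0.994 in PEO4. Without the 2 libraries farthest from the median slope r was 0.982 over 4 PEO1 libraries and 0.996 over 7 PEO4 libraries.
The lines form separate groups, so no value was computed over both. Within a line treated and untreated libraries are pooled here. The 3 untreated libraries of PEO4 had higher slopes, 0.028 to 0.212, than 3 of its 6 treated libraries, which had -0.321 to -0.201.

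**Figure D5:**
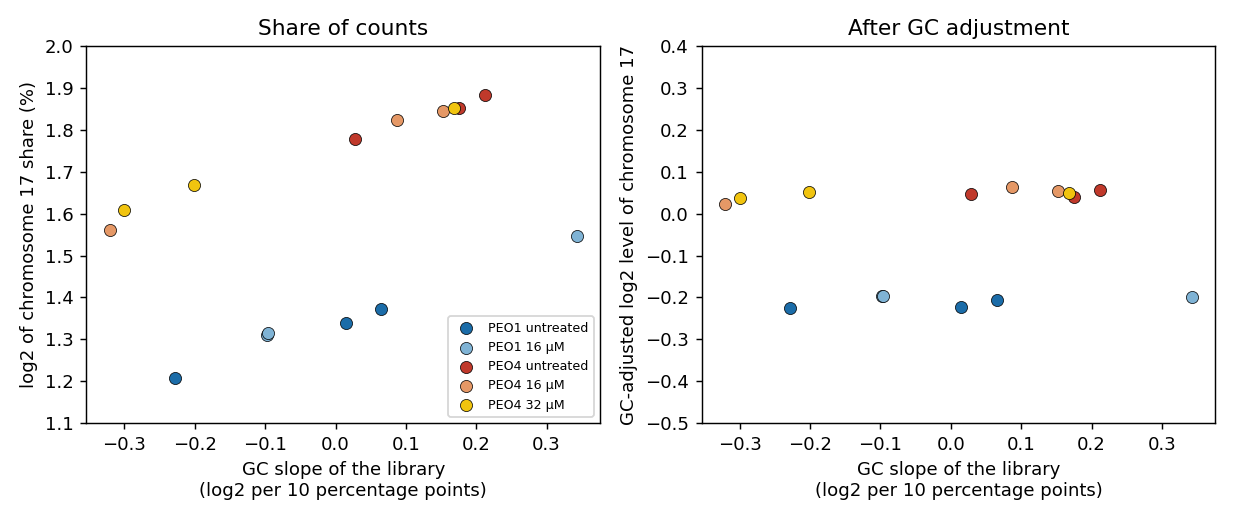
Log2 share of chromosome 17 (left, y axis) and its GC-adjusted log2 level (right, y axis) against the GC slope of the library (log2 per 10 percentage points of GC, x axis) for the 15 libraries, coloured by group. On the left the share rises with the slope within each line (r = 0.99 in PEO1 and 0.994 in PEO4); on the right the libraries of a line span 0.029 in PEO1 and 0.039 in PEO4.

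The apparent response of the chromosome's share depended on single libraries. On the log2 share, chromosome 17 changed relative to the untreated mean by 0.24, 0 and 0.01 in the treated PEO1 libraries. The PEO4 libraries changed by -0.28, 0 and -0.02 with 16 µM and by 0.01, -0.23 and -0.17 with 32 µM. The means were 0.08 ± 0.13, -0.10 ± 0.16 and -0.13 ± 0.13 (SD, n = 3), and without replicate 1, whose GC slope stood apart, they were 0.01, -0.01 and -0.20. On the GC-adjusted level the 3 means were 0.02, 0 and 0, and each library lay within 0.02 of its untreated mean. The small PEO1 shift was shared by its 3 treated libraries (-0.199 to -0.197), which lay above the untreated ones (-0.225 to -0.205). It was not tested. The PEO4 groups overlapped on this level. Both arms moved together on the log2 share, by 0.06 on 17p and 0.09 on 17q in PEO1, and in PEO4 by -0.09 and -0.10 with the lower dose and -0.13 and -0.13 with the higher.
By segment, the GC-adjusted level at each dose stayed close to that of untreated cells. The largest shift was in segment 2 of PEO1, from 0.33 ± 0.013 untreated to 0.39 ± 0.013 at 16 µM (SD, n = 3 each), where all 3 treated libraries (0.38 to 0.41) lay above the 3 untreated ones (0.32 to 0.35). In PEO4 the 7 segment medians at 16 µM and 32 µM were within 0.03 of those without drug.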

How the data were processed

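Pt-exo-seq libraries from 5 groups, 3 per group, were read as one table of counts per 1 kb window, stepped by 900 bp so that windows overlap. The authors deposited raw counts of reads per window, aligned with Bowtie2 to hg19 after adapter trimming, with blacklisted regions and Picard duplicates removed. No values of other samples were in the table (0 unused columns). Window ends matched the GRCh37 chromosome lengths. Replicate libraries differed by more than sampling noise (chi-square per degree of freedom 5.52 to 30.9 over the bins of chromosome 17).

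Windows outside chromosome Y were summed by midpoint into 100 kb bins, so reads in overlaps were counted more than once. Bins with a mean count of at least 50 were tested genome-wide with the quasi-likelihood test of edgeR 4.0.16 in R 4.3.3 (15 libraries, 5 groups, TMM factors, Benjamini-Hochberg adjustment over 28190 bins). DESeq2 1.42.0 and limma 3.58.1 were alternatives. Values per library were compared by exact two-sided permutation tests with Python 3.11.15 and numpy 2.4.6. GC-adjusted levels were log2 of the count plus 0.5 minus a cubic GC trend over the autosomes other than chromosome 17. Segments were found by least-squares optimal partitioning (at least 10 bins, penalty 20 times the noise variance times the log of the number of bins). The edgeR test of the untreated line difference and the segmentation were checked on simulated data. The treatment comparisons were not simulated. Genes were placed by GENCODE release 44 mapped to GRCh37, each by the 100 kb bin of its midpoint.

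Named bins were the 2 highest and 2 lowest of each arm in the GC-adjusted untreated difference, at least 1 Mb apart, and the smallest p in each direction of the 32 µM against 16 µM response difference. The windows shown as sequence were those of highest and lowest GC content per arm, passing over 1 window of 17p whose centre overlapped an untranslated region. The values of 1 listed gene and the AT-rich window of 17q are not reported here. The chromosome, the gene lists and the tests were chosen with earlier results of these data known. For that reason no p is given for the line difference in arm balance, the steps between lines or the relation of share to GC slope. Permutation tests of these were run. The segmentation of each line alone and of the other chromosomes, and the relation to GC content with each library left out, were added after the data had been seen. Alternatives were other scalings, filters, bin sizes, windows, a GC offset, a replicate block, other segment settings and leaving out each library.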

Additional observations from a re-analysis of the deposited data

Results flagged for a closer look

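At the shared dose of 16 µM the change in the balance of 17q to 17p had opposite signs in the lines. The responses differed by -0.036, PEO4 less PEO1, on the log2 scale, with all 3 treated PEO1 libraries above the mean of the untreated PEO1 libraries and all 3 treated PEO4 libraries below that of untreated PEO4. The difference was not tested. The treated PEO4 libraries (2.797 to 2.799) lay within the range of the untreated ones (2.79 to 2.825), and after GC adjustment both responses were positive, 0.014 in PEO1 and 0.003 in PEO4.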

How the results depend on the processing

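Leaving out single libraries, other scalings and filters left the share of called bins within 1.5 times. After GC adjustment the untreated difference of the lines was 0.26 for chromosome 17 (0.53 on the log2 share), 0.39 for 17q (0.61) and -0.04 for 17p (0.10), the last with the opposite sign. The balance of the arms in treated libraries had a difference of 0.472 to 0.481 with each library left out. The response of the balance in PEO4, -0.008 at 16 µM and 0.003 at 32 µM, was 0.003 and -0.003 after GC adjustment and spanned -0.016 to 0.002 and -0.005 to 0.012 with each library left out. The relation of share to GC slope in PEO1 had r of 0.982, 0.971 and 0.981 for chromosome 17, 17p and 17q over the 4 libraries left without the farthest 2. Segmenting the level of each line alone gave 13 segments in PEO1 and 12 in PEO4. These include changes that both lines share, so they are not an alternative to the 7 segments of the line difference.

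Line differences were called in 39.4% to 43.3% of chromosome 17 bins with each library left out, 51.3% with untreated libraries alone, and 40.2% with a replicate block. Replicate numbers did not pair the libraries, as the deviations of same-numbered libraries correlated from -0.677 to 0.634 and 1 of 15 libraries correlated best with its own number. A permutation within replicate numbers leaves the difference in balance of treated libraries at 0.478 by its construction. The treatment comparisons called no bin of chromosome 17 under any alternative run, and with a GC offset the PEO1 comparison called 0.00355% of the bins of the genome. Single 1 kb windows hold too few reads for a comparison, and segment borders are known to the nearest tested 100 kb bin only.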
